A study of Mus musculus with 4 samples.

Results

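Mpo, Prtn3, Lyz2 and Cyba encode enzymes with which phagocytes kill and digest microbes, and their H3K9ac was examined in leukaemic bone marrow of mice. H3K9ac is histone H3 that carries an acetyl group on lysine 9, found at promoters and enhancers in use. The genes were picked by symbol: all 4 have a row in the deposited table, which holds 9615 genes. H3K9ac was measured by chromatin immunoprecipitation and sequencing (ChIP-seq) in 1 library per genotype. Both genotypes carried floxed Gfi1b alleles, Gfi1b(fl/fl), and the NUP98/HOXD13 leukaemia transgene, written Nup98(tg). They differed in Mx-Cre, a Cre recombinase under an interferon-inducible promoter: the library that the submitters call WT came from mice without it, MxCre(wt), and the library called tg from mice with it, MxCre(tg). WT here is therefore a Cre-negative leukaemic control, not a healthy mouse. The labels do not give the animals' age, the number of animals behind a library or whether Cre was induced. Rabbit IgG samples of both genotypes were not analysed here, so no value below has a background measured the same way. With 1 library per genotype there is no test between genotypes, and "higher" and "lower" describe these 2 libraries.

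Neutrophils store their enzymes in granules that are filled in turn during maturation. Myeloperoxidase (Mpo), which makes hypochlorous acid from hydrogen peroxide, and proteinase 3 (Prtn3), a serine protease, belong to the azurophil granules, which form first, at the promyelocyte stage. Lysozyme 2 (Lyz2) cuts the peptidoglycan of bacterial cell walls and is made by neutrophils, monocytes and macrophages. Cyba encodes the smaller membrane subunit of the phagocyte NADPH oxidase, which produces the superoxide that feeds myeloperoxidase. Transcription of the granule genes in myeloid precursors depends on PU.1, C/EBP factors, MYB and RUNX1 with its partner CBFB, and GFI1, the close relative of GFI1B, takes part in neutrophil maturation.

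Promoter stretches of the 4 genes are given here as description, and whether their letters bear on the H3K9ac values was not tested. They are RefSeq sequences of build GRCm38.p6, 5′ to 3′ on the strand of the gene, and capitals mark letters that match a searched motif. All 4 genes matched the RefSeq promoter table. The Mpo stretch lies at chr11:87793534-87793580 (plus strand) and ends where the table's gene interval begins. The stretches of Prtn3 (chr10:79879557-79879666, plus strand), Lyz2 (chr10:117282273-117282382, minus strand) and Cyba (chr8:122432941-122433050, minus strand) are the 110 bases before the RefSeq start.
Mpo: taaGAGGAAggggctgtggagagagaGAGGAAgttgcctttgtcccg
Prtn3: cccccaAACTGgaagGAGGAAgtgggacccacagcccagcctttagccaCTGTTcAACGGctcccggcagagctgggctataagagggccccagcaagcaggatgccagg
Lyz2: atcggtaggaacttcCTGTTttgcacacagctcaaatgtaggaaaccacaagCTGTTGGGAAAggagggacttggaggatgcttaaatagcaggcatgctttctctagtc
Cyba: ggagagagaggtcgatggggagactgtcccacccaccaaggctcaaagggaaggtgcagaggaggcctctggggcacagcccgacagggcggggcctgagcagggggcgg

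Motifs of 5 kinds were searched on both strands in the 250 bases before each RefSeq start. The ETS core GAGGAA, the family of PU.1, was found 2 times before Mpo (beginning 247 and 224 bases before the start) and 1 time before Prtn3 (95 bases before it), and 23.3% of all 32851 promoter entries hold it. The C/EBP motif TTNNGNAA was found before Lyz2 only among the 4 genes, 55 bases before the start, where it overlaps a MYB match, and 36.8% of entries hold it. The MYB motif AACNG was found before Mpo, Prtn3 and Lyz2, and in 74.2% of entries. AAATC, a core of the GFI1 and GFI1B site, was found on the reverse strand before Mpo, 150 bases from the start, and in 32.7% of entries. The TATA box TATAAA was found before none of the 4 genes (12.4% of entries), and the Cyba window held none of the 5 motifs. Over these 250 bases the GC content was 59.2% in Mpo, 60.4% in Prtn3, 60% in Cyba and 41.6% in Lyz2, against a median of 52.4% over all entries. A match describes letters and not a bound site, and the table gives no probe positions, so no read can be placed on these bases.

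The libraries differed in depth. The scaled values correspond to totals of 309649 reads in WT and 163712 in tg, 1.89 times fewer, so that 1 read is worth 3.23 scaled reads in WT and 6.11 in tg, and a count of 0 allows up to 9.69 and 18.3 scaled reads (3 reads). For genes with 1 probe the median was 22 WT reads and 11 tg reads. A gene with 1 probe had no fewer than 9 reads in the sum of both libraries, so a gene that is low in tg is in the table through its WT reads. The animals sampled also differed in Y-linked reads, with 28 in WT and 0 in tg for Uty. The targeted gene Gfi1b held 12 WT reads and 108 tg reads, which does not check the genotype because a loss over the floxed part cannot be seen without probe positions.

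H3K9ac at all 4 granule and phagocyte enzyme genes was at least 2-fold lower in the tg library, by the authors' log2 values. The difference was largest at Mpo, followed by Prtn3, Lyz2 and Cyba. Across the whole table, 15.8% of genes were at least 2-fold lower and 16.5% at least 2-fold higher in tg, and the median log2 ratio was 0.045. By the scaled level averaged over both libraries, the 4 genes lay below the median (62.1 over all genes, 24.3 to 31.9 for the 4 genes). Among genes below that median 20.9% were at least 2-fold lower. This average includes the tg value, so a low tg value itself brings a gene under the median, and the 20.9% is not independent of the difference. In WT alone the 4 genes lay at percentiles 28.2 to 40.6.

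**Figure D1:**
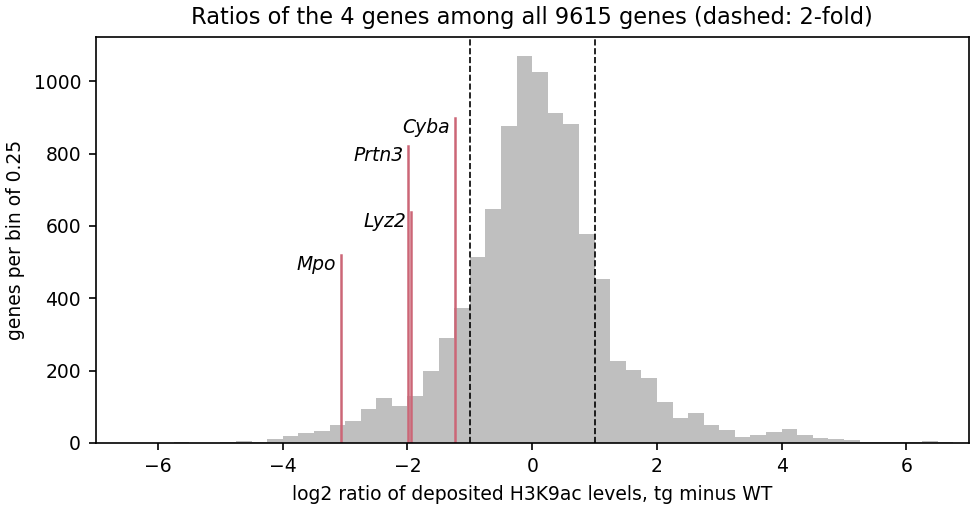
Histogram of the log2 ratio of deposited H3K9ac levels (tg minus WT, bins of 0.25) over all 9615 genes, with red lines at the 4 genes (line height carries no value) and dashed lines at 2-fold. The 4 genes lie left of the lower dashed line, from Cyba at -1.24 to Mpo at -3.07.

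Mpo (ENSMUSG00000009350; chromosome 11, 87793581 to 87804413, GRCm38) has 2 probes, the windows in which the authors quantified reads. In WT these held 12 and 19 reads, and in tg 0 and 1. At the depth of tg, a level equal to WT would have given 16.4 reads in place of 1. Both WT probes were thus marked and both tg probes were at or under the level of 1 read. The deposited log2 level was 5.61 in WT and 2.53 in tg, a log2 ratio of -3.07, and the summed reads were 16.4-fold lower in tg (95% counting interval 2.73 to 668). The interval is wide because it rests on 1 tg read. In rank, Mpo went from percentile 40.6 of all genes in WT to percentile 0.988 in tg.

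A gene model inside Mpo has counts equal to those of an Mpo probe. The model Gm11505 (87795784 to 87801144), which lies wholly within the Mpo interval, has 1 probe with 12 WT reads and 0 tg reads, equal to 1 of the 2 Mpo probes in each library. The match rests on these counts alone, since positions and widths of probes are not given. If they are the same probe, the other Mpo probe held 19 and 1 reads. For the Gm11505 probe the difference was 2.11-fold if set against 3 reads in tg. The lower bound of its counting interval was 1.47-fold.

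Prtn3 (ENSMUSG00000057729; chromosome 10, 79874476 to 79883174) has 1 probe, which held 15 WT reads and 2 tg reads, where equal levels would have given 7.93. The log2 level was 5.60 in WT and 3.61 in tg. The scaled reads were 3.97-fold lower, but the counting interval of 0.922 to 35.7 includes 1, so a difference was not detectable beyond counting error at this depth. The neighbouring gene model BC005764 has exactly the same values in both libraries, and its interval overlaps that of Prtn3 by 159 bp. This overlap lies at the far upstream end of the table's Prtn3 interval, which begins 5191 bp before the RefSeq start of the gene. If both values come from 1 probe, it would be expected in or near this overlap, away from the RefSeq start of Prtn3. The value may therefore not describe the start of the gene. Where the reads lie cannot be settled, because the match rests on equal values and probe positions are not given.

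Lyz2 (ENSMUSG00000069516; chromosome 10, 117277334 to 117282274) has 2 probes with 11 and 13 reads in WT and 0 and 3 in tg. The WT probes were alike, and 1 tg probe held all of the tg reads. The log2 level was 5.27 in WT and 3.33 in tg, and the summed reads were 4.23-fold lower (1.28 to 21.9), with 3 reads in tg where equal levels would have given 12.7. With the tallest probe of each library alone the difference was 2.29-fold (0.630 to 12.5), an interval that includes 1. Lyz1, a near-identical copy that lies beside Lyz2, was not analysed here, and the labels do not say how reads matching both were assigned.

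Cyba (ENSMUSG00000006519; chromosome 8, 122424772 to 122432940) has 3 probes with 7, 10 and 38 reads in WT and 2, 3 and 5 in tg. It was the best covered of the 4 genes. A single probe held 69.1% of its WT reads, and the spread over probes was larger in WT (SD of the log2 values 1.29) than in tg (0.66). The log2 level was 5.48 in WT and 4.25 in tg, and the summed reads were 2.91-fold lower (1.47 to 6.40). The tallest probe of each library differed by 4.02-fold (1.58 to 13.1). A gene model of 75 probes, Gm20388, spans Cyba and its neighbours, and its log2 ratio of 0.30 averages over that whole span.

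**Figure D2:**
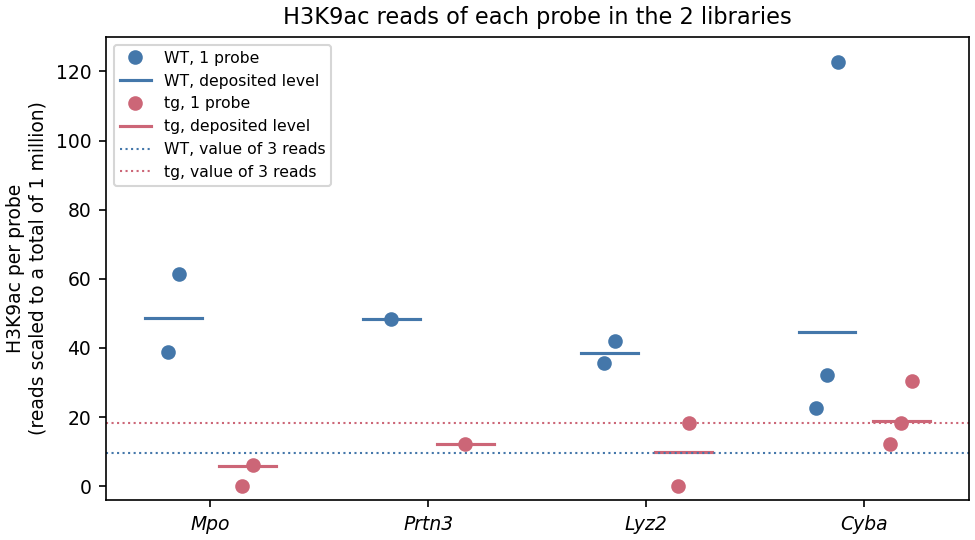
H3K9ac per probe in reads scaled to a total of 1000000 for the 4 genes, WT in blue and tg in red; points are single probes, short bars the deposited level (the geometric mean over probes, with 0 reads entered as 0.9 of a read) and dotted lines the value of 3 reads in each library. WT probes lie between 22.6 and 123 and above the WT line, whereas all tg probes but 1 of Cyba, at 30.5, lie at or below the tg line.

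The 4 genes did not separate from one another. Every pair of their counting intervals overlapped, so the order from Mpo to Cyba is a description. In WT they lay close together, with deposited levels of 38.6 to 48.8 scaled reads per probe and percentiles of 28.2 to 40.6. In tg they lay at percentiles 0.988 (Mpo), 2.89 (Lyz2), 4.39 (Prtn3) and 9.61 (Cyba). Because the widths of the probes are not given, levels were not compared between genes per length.

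Markers of blood cell types did not all differ in one direction. Over all genes, the shares to set beside these counts were 15.8% at least 2-fold lower and 16.5% at least 2-fold higher. Of 12 neutrophil markers 2 had a row, Mpo itself and Csf3r, the granulocyte colony-stimulating factor receptor gene, and of their summed level of 139 scaled reads in WT and 18.3 in tg, Mpo held 100.1 and 6.11. Without Mpo this list comes down to Csf3r, with 12 and 2 reads, whose interval (0.706 to 29.2-fold lower) includes 1. Of 14 erythroid markers 11 had a row and 10 were at least 2-fold higher in tg, with a summed level of 507 in WT and 2639 in tg, and Epor, Alas2 and Rhag were at 0 reads in WT. Of 12 monocyte and macrophage markers 7 had a row, with 3 lower, 1 higher and 3 between, and a median log2 ratio of -0.08. Their summed level went from 1770 to 421, but Irf8 held most of the reads (407 of 548 in WT). The fall in the sum was therefore not shared by the list as a whole. The eosinophil and mast cell marker Hdc held 11 WT reads and 0 tg reads, while the B cell markers (2 of 8 with a row) and the T and NK cell markers (2 of 8) had no gene 2-fold higher or lower. Of 6 stem and progenitor markers 5 had a row, with 4 lower and 1 higher, and the summed level went from 656 to 250.4, with Cd34 at 0 reads in tg. None of the 6 megakaryocyte markers had a row. Fewer myeloid cells and less acetylation per cell cannot be told apart in such bulk libraries, and the part of cell composition in the difference was not tested.

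Of the granule lists, few genes had a row. The azurophil list of 10 genes had 3, which are Mpo, Prtn3 and Lyz2, so it adds no gene, and Elane, the neutrophil elastase gene beside Prtn3, and Ctsg, the cathepsin G gene, were not analysed here. The list of specific and gelatinase granule proteins, stored later in maturation, had 1 of 20 genes. That gene was Anxa1, an anti-inflammatory phospholipid-binding protein gene, with 36 WT reads and 5 tg reads (3.81-fold lower, 1.49 to 12.4).

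Around Cyba, the genes of the NADPH oxidase and its regulators did not move as a block. Of 14 listed symbols, 10 had a row: 2 were at least 2-fold lower, 1 was at least 2-fold higher and 7 lay between, with a median log2 ratio of -0.14, and without Cyba the median was 0.17. At 20%, the list's share of lower genes lay near the 15.8% of the whole table. BC017643, an older symbol of Cybc1, which encodes a chaperone for the oxidase's membrane subunits, had 56 and 15 reads (1.97-fold lower, 1.10 to 3.76).

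The other members of the oxidase list were nearer to equality or higher. The GTPase gene Rac1 had a deposited log2 ratio of 2.21 over 2 probes but a summed ratio of 1.51 (1.01 to 2.25), and the GTPase inhibitor genes Arhgdib and Arhgdia had summed ratios of 1.57 (1.13 to 2.19) and 1.11 (0.704 to 1.72). Rac2, the GTPase of the oxidase in neutrophils, and Ncf1, the organiser subunit, are named beyond the rule for named genes, after their values were seen. Rac2 held 22 and 8 reads (ratio 0.688, 0.265 to 1.60), and Ncf1 30 and 10 (0.630, 0.275 to 1.33). Both intervals include 1.

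**Figure D3:**
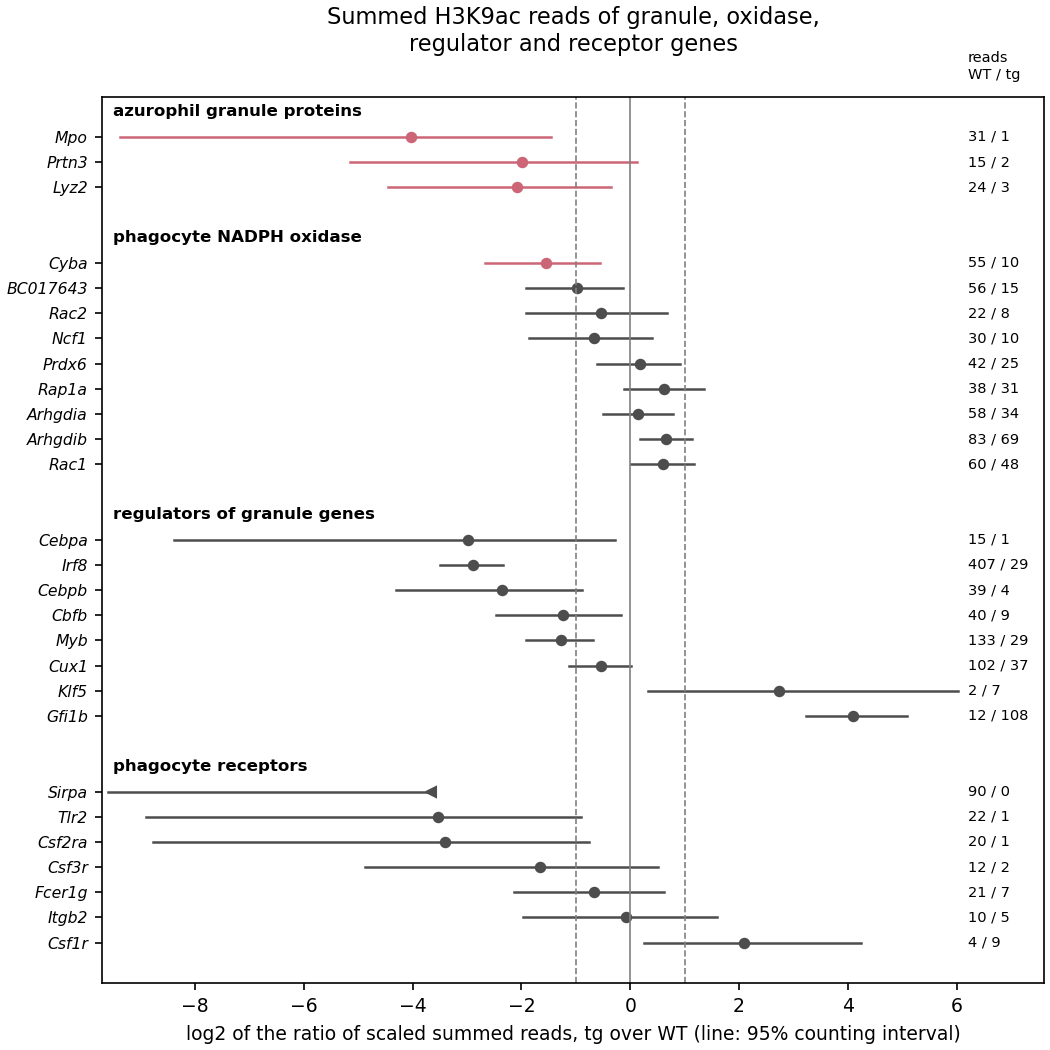
Log2 ratio of scaled reads summed over probes (tg over WT) for genes with recovered reads in 4 lists; points are ratios, lines 95% counting intervals, a left-pointing triangle marks the upper bound of a gene with 0 tg reads, red marks Mpo, Prtn3, Lyz2 and Cyba, dashed lines mark 2-fold and reads are printed at the right. The lines of Mpo, Lyz2 and Cyba end left of 0, that of Prtn3 crosses 0, and Gfi1b lies far to the right at 12 and 108 reads.

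Genes that process, sort and release granule contents mostly differed by less than 2-fold. Of 18 listed genes 16 had a row, 1 was 2-fold lower and 1 higher, and the median log2 ratio was 0.17. The share of lower genes was 6.25%, against 15.8% of the whole table. The lower gene was Serpinb1a, which encodes an inhibitor of neutrophil serine proteases, on 8 and 2 reads (ratio 0.473, 0.049 to 2.37). Ctsc, whose product cathepsin C activates the serine proteases, had 32 and 11 reads (0.650, 0.296 to 1.32), and Cst3, the cystatin C gene, 19 and 6 (0.597, 0.195 to 1.56). The highest ratios were those of Ap3b1, a subunit gene of the adaptor that sorts cargo to lysosome-related organelles (2.63, 1.58 to 4.45), Hax1, a survival factor gene of neutrophils (1.99, 1.02 to 3.86), and Lyst, with 9 reads in each library (1.89, 0.665 to 5.38). Srgn, the gene of serglycin, the proteoglycan that packs granule proteins, is named beyond the rule after its values were seen: its deposited log2 ratio was -0.21, while its summed reads (125 and 36) were 1.84-fold lower (1.26 to 2.74).

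Lysosomal hydrolase genes, which share the digestive function of granule enzymes but are used by most cells, had a median near equality. Of 33 listed genes 29 had a row, 6 were 2-fold lower and 3 higher, and the median log2 ratio was -0.15. The share of lower genes, 20.7%, lay near the 15.8% of the whole table. Among the lowest was the sulfamidase gene Sgsh (14 and 0 reads, 2.47-fold if set against 3 tg reads, lower interval bound 1.75-fold). Another was the cathepsin H gene Ctsh (43 and 5, 4.55-fold, 1.81 to 14.7). Highest were Naglu, with 5 and 12 reads (4.54-fold higher, 1.49 to 16.4), the cathepsin D gene Ctsd (2.09-fold, 1.22 to 3.58) and the sphingomyelinase gene Smpd1 (2.08-fold, 0.802 to 5.46).

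Genes of phagocyte receptors and of the regulators of granule genes included several that were lower in tg, beside a few that were higher. Of 25 receptor genes 7 had a row, with 4 lower, 1 higher and a median log2 ratio of -1.67. The lower ones made up 57.1% of these 7 genes, against 15.8% of the whole table. The inhibitory receptor gene Sirpa held 90 and 0 reads (15.9-fold lower if set against 3 tg reads, lower interval bound 12.6-fold). Tlr2, the receptor gene for bacterial lipoproteins, held 22 and 1 (11.6-fold, 1.88 to 480). Csf2ra, a receptor chain gene for granulocyte-macrophage colony-stimulating factor, held 20 and 1 (10.6-fold, 1.69 to 438). Csf3r had 12 and 2 reads (3.17-fold lower, 0.706 to 29.2). Fcer1g, the gene of the shared signalling chain of Fc receptors, and the integrin gene Itgb2 had ratios of 0.630 (0.226 to 1.54) and 0.946 (0.254 to 3.04), and Csf1r was higher, on 4 and 9 reads.

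Of 13 regulator genes 9 had a row, with 5 lower, 2 higher and a median log2 ratio of -1.03. The lower ones made up 55.6% of these 9 genes, against 15.8% of the whole table. Cebpa, which drives entry into the granulocyte lineage, held 15 and 1 reads (7.93-fold lower, 1.22 to 334). Cebpb held 39 and 4 (5.15-fold, 1.86 to 19.9), and Irf8, which favours the monocyte over the neutrophil fate, 407 and 29 (7.42-fold, 5.09 to 11.2). Runx1, with 6 probes, had a log2 ratio of -0.05. Klf5 was higher on 2 and 7 reads, as was Gfi1b (17.0-fold, 9.36 to 34.0). The gene of PU.1, an ETS factor of the myeloid lineage, is listed by its current symbol Spi1 and stands in the table as Sfpi1, an older symbol, with 118 WT reads and 12 tg reads over 2 probes (5.20-fold lower, 2.87 to 10.3; log2 ratio -2.26). It was matched after its value was seen, and with it 10 regulators had a row, with 6 lower, 2 higher and a median of -1.13. Motifs of the C/EBP, ETS and MYB families are those searched above, and no binding of a factor was measured.

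**Figure D4:**
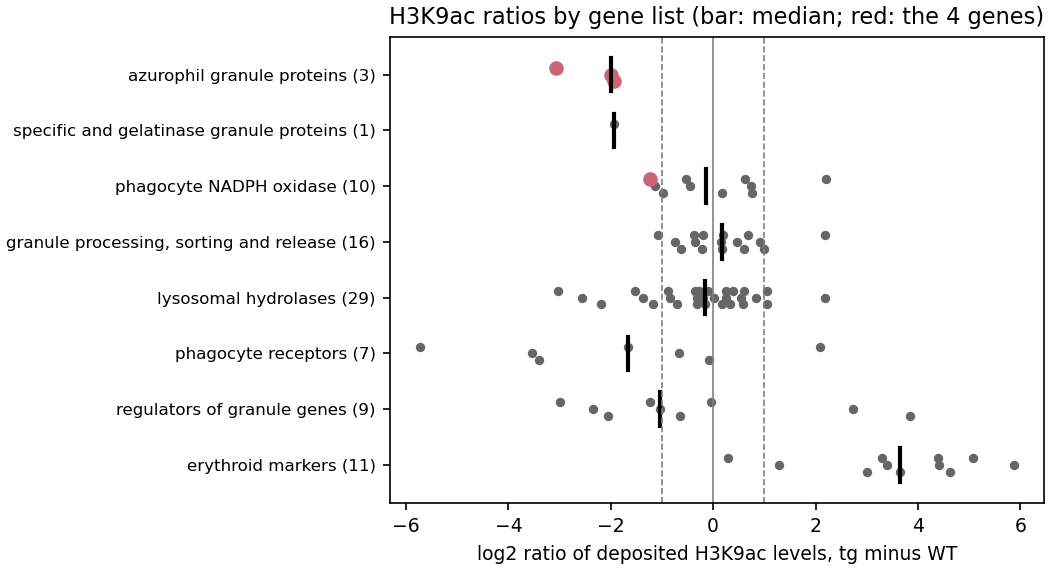
Log2 ratio of deposited H3K9ac levels (tg minus WT) for each gene with a row under its listed symbol, by list, with the number of such genes in parentheses; black bars are medians, red points Mpo, Prtn3, Lyz2 and Cyba, and dashed lines 2-fold. Medians of the oxidase, processing and lysosomal lists lie between -0.15 and 0.17, those of receptors and regulators at -1.67 and -1.03, and that of erythroid markers at 3.65.

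The surroundings of the 4 genes did not share one direction. Genes within 100 kb were counted, those with the same values once. The 3 gene models that share a probe's values with a member or span it were left out. This gave 18 neighbours, of which 3 were at least 2-fold lower and 4 at least 2-fold higher. Over all genes the shares were 15.8% lower and 16.5% higher, and whether the neighbours depart from them was not tested. Beside Mpo, Bzrap1, 7.65 kb away, held 9 WT reads and 1 tg read (4.76-fold lower, 0.659 to 209). The probe of A430104N18Rik and Mir142, the microRNA gene expressed across blood cells, 36.3 kb from Mpo, held 155 and 45 reads and was 1.82-fold lower (1.30 to 2.60). Rnf43, 58.0 kb away, was 2.99-fold higher (1.38 to 6.77).

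Around Prtn3, 8 neighbours were counted and 0 were 2-fold lower. The splicing regulator gene Ptbp1, 9.70 kb from it, held 64 and 27 reads (ratio 0.798, 0.489 to 1.27), and Med16, 11.5 kb away on the other side, 36 and 13 (0.683, 0.332 to 1.32). Arid3a and Wdr18 were at least 2-fold higher by the deposited values (log2 ratios 1.19 and 1.28), though both summed intervals include 1 (0.760 to 2.40 and 0.806 to 7.68). On either side of Lyz2, Yeats4 (34 and 13 reads; ratio 0.723, 0.350 to 1.41) and Cpsf6 (66 and 27; 0.774, 0.475 to 1.23) had intervals that include 1.

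Cyba lay among genes of both directions. Zc3h18, 7.41 kb from Cyba, was 3.81-fold lower on 36 and 5 reads (1.49 to 12.4), and the probe shared by Rnf166 and Ctu2, 33.2 kb away, was 2.70-fold lower on 46 and 9 (1.31 to 6.28). Zfpm1, which encodes the GATA1 cofactor FOG1 of erythroid and megakaryocytic cells, lies 87.5 kb from Cyba on the same chromosome and was 9.79-fold higher on 23 and 119 reads (6.22 to 16.0). Fam38a, now called Piezo1, 48.8 kb away, had a ratio of 1.56 (0.954 to 2.54). The 2 measured neighbours nearest to Cyba, Zc3h18 and Rnf166, were thus lower as well.

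**Figure D5:**
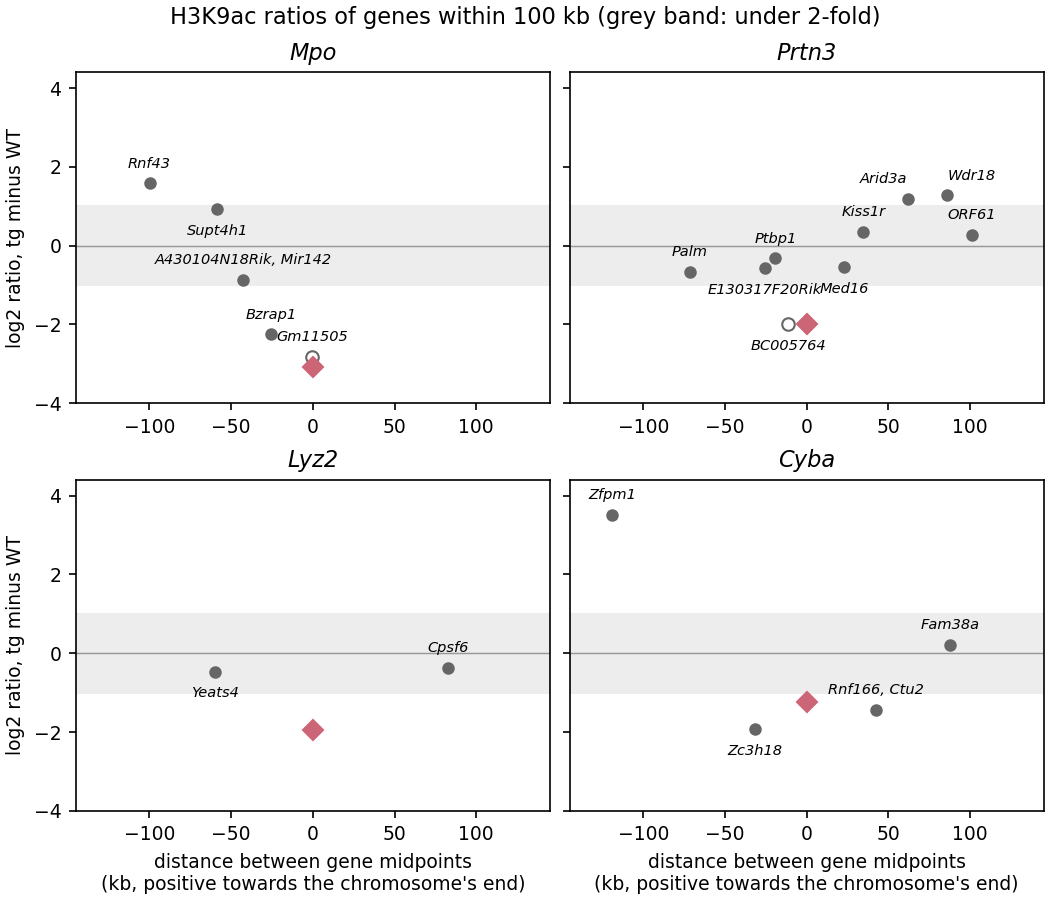
Log2 ratio of deposited H3K9ac levels (tg minus WT) of genes within 100 kb of each of the 4 genes, by distance between gene midpoints in kb; red diamonds are the 4 genes, filled points neighbours (genes with the same values drawn once), open circles gene models that share a probe's values with the gene, and the grey band marks differences under 2-fold. Zfpm1, at 3.51, stands opposite to Cyba, at -1.24, and both neighbours of Lyz2 lie inside the band.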

How the data were processed

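H3K9ac ChIP-seq of 2 libraries was used, 1 per genotype. The submitters' processing notes name CASAVA 1.8.2, BWA, SAMtools and FastQC, and as builds GRCm38 and mm10. The placement of probes, the treatment of duplicate reads and the program behind the table are, in the sources used here, not stated. Per the labels' protocols, red cells were lysed before fixation. The authors deposited log2 values per gene, the mean and SD over its probes, per the file headers. Columns were matched to samples by library code, with 0 left unmatched. From the values, 100% of the 7423 genes with 1 probe are whole reads scaled to 1000000, with 0 entered as 0.9 of a read. Reads per probe were recovered for genes with 1 to 4 probes where exactly 1 set of whole numbers matched mean and SD within 3e-06 (9492 genes, 98.7%), with a procedure tested on simulated data. Which WT probe corresponds to which tg probe is not known.

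The tg to WT ratio is the difference of deposited log2 values. Folds come from summed reads divided by the totals; their 95% intervals are Clopper-Pearson intervals of the tg share of a gene's reads. Intervals and the floor of 3 reads cover counting error only, and PCR copies can count as several reads. A difference of 2-fold is a rule of size. The 4 genes, the 7 pathway and 8 marker lists and the alternatives were chosen with earlier results of these data known. Named were the 4 genes; of each list all genes with a row where 6 or fewer, otherwise the 3 highest and 3 lowest ratios; genes within 100 kb; and the 2 genes nearest in pattern to each. Some neighbours are given only as counts, and some genes that the rule names are counted but not reported here by name. Alternatives were other centrings, summaries over probes, fold thresholds, a level filter, merged neighbours and, added later, genes under older symbols by RefSeq synonyms. Python 3.11.15, NumPy 2.4.6, pandas 2.3.3 and SciPy 1.17.1 were used.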

Additional observations from a re-analysis of the deposited data

How the results depend on the processing

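The log2 ratios of Mpo, Prtn3, Lyz2 and Cyba stayed negative under centring on all genes or on 78 ribosomal protein genes (median -0.01), summing reads, adding 1 read to each library and, chosen after seeing the data, the tallest probe alone; each stayed within its counting interval, and in size they ranged from -1.20 (Lyz2, tallest probe) to -4.03 (Mpo, summed reads). The count of 4 genes 2-fold lower became 3 at 3-fold, without Cyba, and none of the 4 reached the median level, so that filter could not be applied to them. Over all genes, 1522 were 2-fold lower, against 2445 at 1.5-fold, 768 at 3-fold, 519 among genes at or above the median level and 1003 (20.9%) among the 4803 below it, the last chosen after seeing the data. The fold thresholds move the count by construction; why the share differs with the level was not tested. Without Cyba the oxidase list had 1 lower gene in place of 2, and at 1.5-fold the processing list had 3 in place of 1. With Sfpi1 matched by its older symbol, also chosen after seeing the data, the regulator list had 6 lower genes in place of 5. In all, 40 of 46 alternative values stayed within the counting interval or within 1.5 times the main count. Part of this tally was fixed in advance. Prtn3 has 1 probe, so its summed and tallest-probe values equal the deposited one. Centring only subtracts a median of 0.045 (all genes) or -0.01 (ribosomal protein genes), which is small beside the wide intervals. The tally therefore does not measure robustness. No paired analysis was possible because each genotype has 1 library. The depth limits Mpo, Prtn3 and Lyz2 most, with 1, 2 and 3 reads in tg.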

Other observations

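The genes whose pair of log2 levels lay nearest to each of the 4 genes, by Euclidean distance over the 2 libraries, were a mixed group. Nearest to Mpo were Camk2b (15 reads in WT and 0 in tg) and Cebpa (15 and 1), both at a distance of 0.077, which 9 named genes shared. Prtn3 had 5 genes at distance 0, of which Ebi3 and Nxt2 come first by name, since 15 and 2 reads in 1 probe is a common value at this depth. Tmcc1 (25 and 3 reads over 2 probes) and Mndal were nearest to Lyz2, at 0.034 and 0.067, and Inpp1 and Ptpre were nearest to Cyba, at 0.046 and 0.051. With 2 libraries, such likeness only says that the levels are alike.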
